A study of Homo sapiens with 6 samples.

Results

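NPM1, NCL, PTMA, SET, ANP32B and NAP1L1 are 6 human genes for nucleolar proteins and acidic histone chaperones. Their members in the data were all transcripts that carry an ENST identifier and that GENCODE release 44 assigns to these symbols, matched without the version number. This gave 56 transcripts among the 46484 human transcripts of 5 count matrices, and 6 genes among 12472 human genes with a symbol. In the human cells the 6 genes together held between 114.3 and 152.1 of every 10000 human counts in each library. NPM1 and NAP1L1 were each several times higher in the Drop-seq libraries than in the 10X libraries, while SET and PTMA were lower there.

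Histone chaperones are proteins that bind histones away from DNA and hand them to and from chromatin, and many of them carry long stretches of acidic residues that face the basic histones. NPM1 and NCL are abundant proteins of the nucleolus, where ribosomal RNA is made and ribosomes are assembled. All 6 genes are broadly expressed and are usually high in growing cells, which includes myeloma and leukemia lines.

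The series is a test of molecule counting, in which human and mouse myeloma cells labelled JJN3 and 5TGMG1 were mixed, captured as single cells and read on nanopore instruments. JJN3 is a human plasma cell line, and the mouse line is written 5TGM1 in the methods of the study. The labels name no drug or genetic change, and by them the groups differ in the capture platform and in the number of PCR cycles. The study varied the cycles to see how copying errors in unique molecular identifiers (UMIs, random tags that mark each captured RNA molecule) alter the counts. Per its methods the Drop-seq beads carried barcodes and UMIs built of blocks of a repeated base (homotrimers), while 10X UMIs used single bases. The mixing ratio of human to mouse cells also differed between the platforms. A 10X Chromium pair carries 30 and 35 cycles in its labels for 2000 cells each, a Drop-seq pair made on the Nadia system carries 30 and 35 cycles for 500 cells each, and a further Drop-seq library carries 25 cycles for 1000 cells. A sixth sample, also Drop-seq, gives only read numbers and was not used. Each group is 1 library, so no difference below has a replicate check or a p-value. All intervals are at 95% and cover nothing but counting error, since copies made by PCR are not independent molecules.

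Taken as human cells were the top barcodes by count, up to the labelled number of cells, with at least 90% of their counts on human transcripts. There were 251, 166 and 165 of them in Drop-seq after 25, 30 and 35 cycles, with 115245, 67144 and 93499 human counts, and 1006 and 911 in 10X after 30 and 35 cycles, with 161961 and 199308 human counts. The median cell held 271, 243 and 352 counts in Drop-seq and 118 and 171 in 10X. The 25-cycle library stores values from 1 upwards, 10X from 2 and Drop-seq at the higher cycle numbers from 3, so a lower value in those libraries is missing and not 0. The stored barcodes have 10 bases. The human cells of the 10X pair shared 722 of them, those of Drop-seq after 30 and 35 cycles shared 145, and no human cell barcode was shared between the platforms. The 25-cycle Drop-seq library shared 135 and 133 with the others of its platform, so the libraries of a platform hold in large part the same stored barcodes.

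The labelled cell line was checked against its markers, and the platforms differed. In 10X all 10 of 10 plasma cell genes had counts and summed to 67.6 and 43.95 per 10000 human counts, led by JCHAIN with 392 and 310 counts, while 0 of 12 T cell genes had any. In Drop-seq 1 of the 10 plasma cell genes had counts, MZB1 with 15, 5 and 7, and SDC1, TNFRSF17, XBP1, JCHAIN, IRF4, PRDM1, POU2AF1, CD38 and SLAMF7 were at 0. Of the T cell genes 10, 5 and 6 of 12 had counts there, 24.1, 23.4 and 19.1 per 10000, led by CD3G with 102, 73 and 69. The human cells of the Drop-seq libraries thus go against a plasma cell label. The platform, the UMI design and the kind of human cell cannot be told apart in any comparison of Drop-seq with 10X. A figure legend and the culture methods of the study name Jurkat, a T cell line. Comparisons of cycle numbers stay within a platform.

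The acidic stretches that set these genes apart are shown first, because they are what the chaperones share. GAA, GAG, GAC and GAT, the codons for the acidic residues, make up 48.2% of the coding codons of PTMA, 37.5% of ANP32B, 31.8% of SET, 26.6% of NAP1L1, 24.8% of NCL and 22.1% of NPM1, against a median of 11.3% over 19539 coding genes. No gene has a higher share than PTMA. The longest unbroken run of such codons is 38 in NCL, 20 in NPM1, 15 in ANP32B, 11 in SET, 8 in PTMA and 6 in NAP1L1, and runs as long as that of NCL occur in 0.0154% of the genes and as long as that of NAP1L1 in 6.37%. Below is the window of 30 coding codons richest in them for each gene, in coding direction, with the acidic codons in capitals. The transcripts come from GENCODE on hg38, and positions run from the first to the last base and cross an intron in NPM1, PTMA, ANP32B and NAP1L1.
NPM1, chr5:171392929-171400192, plus strand: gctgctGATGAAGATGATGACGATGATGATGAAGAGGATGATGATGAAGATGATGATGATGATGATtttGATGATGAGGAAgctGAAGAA
NCL, chr2:231460691-231460780, minus strand: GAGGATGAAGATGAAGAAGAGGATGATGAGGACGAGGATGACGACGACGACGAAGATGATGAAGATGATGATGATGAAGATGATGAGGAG
PTMA, chr2:231711923-231712471, plus strand: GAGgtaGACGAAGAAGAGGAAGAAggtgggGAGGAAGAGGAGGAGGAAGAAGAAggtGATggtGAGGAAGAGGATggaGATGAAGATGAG
SET, chr9:128693929-128694018, plus strand: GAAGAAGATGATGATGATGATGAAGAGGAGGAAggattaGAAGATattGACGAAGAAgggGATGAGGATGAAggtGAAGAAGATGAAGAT
ANP32B, chr9:98005132-98011338, plus strand: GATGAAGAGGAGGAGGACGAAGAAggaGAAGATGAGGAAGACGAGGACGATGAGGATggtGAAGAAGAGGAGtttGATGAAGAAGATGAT
NAP1L1, chr12:76049218-76050557, minus strand: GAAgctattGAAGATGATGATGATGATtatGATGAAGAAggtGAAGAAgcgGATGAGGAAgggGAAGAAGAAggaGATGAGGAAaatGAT
In the NCL window all 30 codons are acidic, and in the NAP1L1 window 22 are.

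NPM1 encodes nucleophosmin, a nucleolar chaperone of histones and ribosomal proteins. Its level was 38.4 counts per 10000 human counts in Drop-seq after 25 cycles (443 counts, exact Poisson interval 34.9 to 42.2), 33.8 after 30 cycles (227 counts, 29.6 to 38.5) and 33.0 after 35 cycles (309 counts, 29.5 to 36.9). In 10X it was 1.23 after 30 cycles (20 counts, 0.754 to 1.91) and 2.61 after 35 cycles (52 counts, 1.95 to 3.42). The Drop-seq intervals overlap one another and lie above both 10X intervals, which do not overlap. The 10X counts came from 4 and 8 cells and are sums over transcripts that can repeat a count. Little is therefore read from the gap between the 10X intervals.

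NCL encodes nucleolin, which binds ribosomal RNA precursors and chromatin in the nucleolus. Its level was 5.55 per 10000 in Drop-seq after 25 cycles (64 counts, 4.28 to 7.09), 9.53 after 30 cycles (64 counts, 7.34 to 12.2) and 10.6 after 35 cycles (99 counts, 8.61 to 12.9). In 10X it was 13.8 after 30 cycles (223 counts, 12.0 to 15.7) and 24.7 after 35 cycles (493 counts, 22.6 to 27.0). The 10X library after 35 cycles stands above the other 4 libraries, and the 25-cycle Drop-seq library below them.

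PTMA encodes prothymosin alpha, a small and extremely acidic protein that binds the linker histone. Its level was 61.4 per 10000 in Drop-seq after 25 cycles (708 counts, 57.0 to 66.1), 55.0 after 30 cycles (369 counts, 49.5 to 60.9) and 68.2 after 35 cycles (638 counts, 63.0 to 73.7). In 10X it was 83.6 after 30 cycles (1354 counts, 79.2 to 88.2) and 109.5 after 35 cycles (2183 counts, 105.0 to 114.2). Both 10X libraries lie above all 3 Drop-seq libraries, whose intervals overlap except for those after 30 and 35 cycles. PTMA supplied most of the counts of the 6 genes in 10X, so their sum follows it there.

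SET encodes a histone chaperone and inhibitor of the phosphatase PP2A. It had 43 counts in Drop-seq after 25 cycles (3.73 per 10000, 2.70 to 5.03), 5 after 30 cycles (0.745, 0.242 to 1.74) and 21 after 35 cycles (2.246, 1.39 to 3.43). In 10X it had 153 counts after 30 cycles (9.45 per 10000, 8.01 to 11.1) and 152 after 35 cycles (7.63, 6.46 to 8.94). Drop-seq lies below 10X throughout, and the 30-cycle value rests on 1 cell.

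ANP32B encodes a leucine-rich acidic nuclear phosphoprotein that binds histones. It had 41, 29 and 34 counts in Drop-seq after 25, 30 and 35 cycles, levels of 3.56 (2.55 to 4.83), 4.32 (2.89 to 6.20) and 3.64 per 10000 (2.52 to 5.08). In 10X it had 28 counts after 30 cycles (1.73 per 10000, 1.15 to 2.50) and 78 after 35 cycles (3.91, 3.09 to 4.88). The 10X library after 30 cycles is the low one, and the other 4 overlap.

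NAP1L1 encodes nucleosome assembly protein 1-like 1, which carries H2A and H2B. Its level was 18.7 per 10000 in Drop-seq after 25 cycles (216 counts, 16.3 to 21.4), 17.4 after 30 cycles (117 counts, 14.4 to 20.9) and 16.5 after 35 cycles (154 counts, 14.0 to 19.3). In 10X it was 4.57 after 30 cycles (74 counts, 3.59 to 5.74) and 3.66 after 35 cycles (73 counts, 2.87 to 4.61). The cycle numbers of a platform overlap and the platforms do not.

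**Figure D1:**
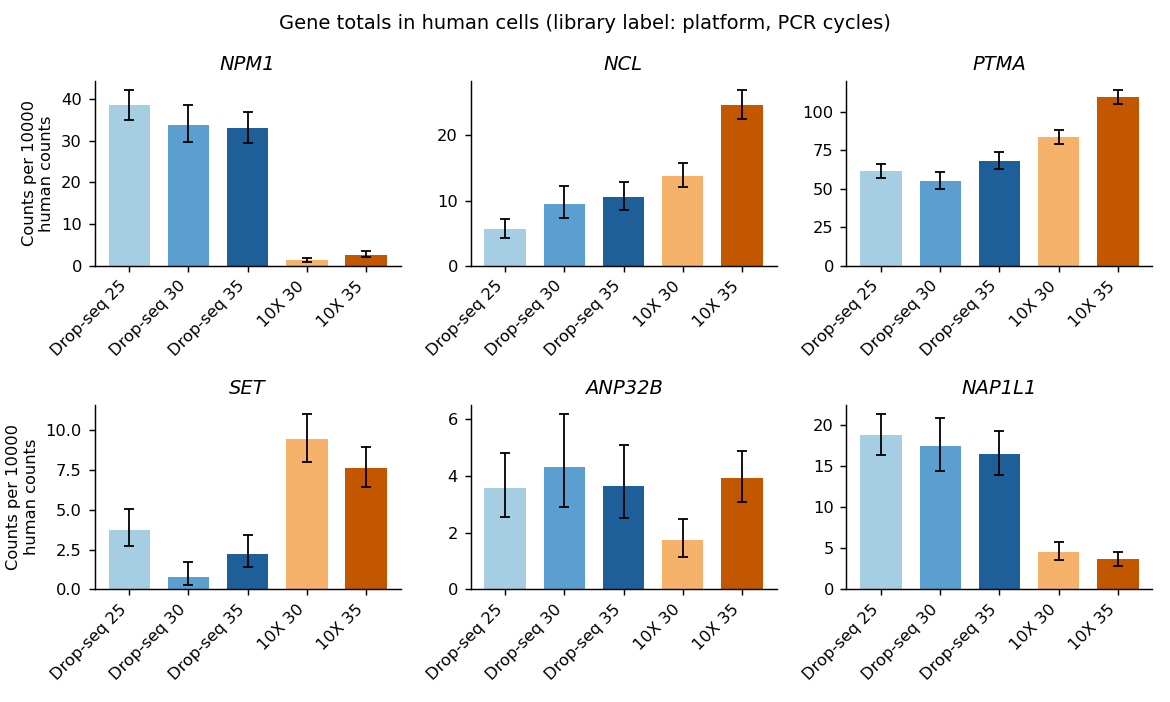
Level of each gene in the human cells of the 5 libraries, in counts per 10000 human counts on axes that start at 0 and differ between genes, with exact Poisson 95% intervals as error bars. NPM1 and NAP1L1 bars are tall in the 3 Drop-seq libraries (33.0 to 38.4 and 16.5 to 18.7), and NCL, PTMA and SET bars are taller in 10X.

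A gene total can count a molecule more than once, since transcripts of a gene often held the same count in the same cell. For PTMA the sum over transcripts was 2.88 to 3.42 times the sum of the highest transcript in each cell, for NPM1 2.50 to 2.95 times, for NAP1L1 1.48 to 3 times, for SET 1 to 1.81 and for NCL 1.25 to 1.52. ANP32B has a single transcript in the matrices and no such surplus. The main PTMA forms ENST00000409115 and ENST00000341369 had the same count in 534 of the 589 human cells with either (90.7%), and the NPM1 forms ENST00000296930 and ENST00000517671 in 47 of 64 (73.4%). Levels are therefore read across libraries for each gene, and not from gene to gene.

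The 10X pair asks what 5 more cycles of PCR do to the counts. ANP32B was the only one of the 5 genes with at least 100 counts over both libraries that was called higher by the 2-fold rule, with a log2 ratio of 1.16 (exact conditional binomial interval 0.54 to 1.86). None of the 5 was called lower. Over all 391 human genes tested, 10.2% were called higher, 19.9% lower and 30.2% in either direction, so 1 of 5 lies near the background. The ANP32B call is lost with counts of both species as the scale (0.97) and with all barcodes of at least 100 counts as cells (0.94). It is also lost for want of 100 counts with 0.5 times the labelled cells (19 and 50) and with values below 3 left out (6 and 28). Its 10X counts came from 13 and 34 cells, with a median of 2 in both libraries and at most 3 and 4. That median is the smallest value stored in 10X.

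The other ratios in 10X were below that rule. NCL had a log2 ratio of 0.84 (0.61 to 1.08). It passed 2-fold when scaled by the median of ratios (1.03), with 0.5 times the labelled cells (1.03), with all barcodes of at least 100 counts (1.105) and with values below 3 left out (1.50). Other alternatives stayed below 2-fold, the lowest with counts of both species (0.65), the highest transcript per cell (0.64) and protein-coding transcripts only (0.63). PTMA had 0.39 (0.29 to 0.49), and from 0.11 to 0.58 over the alternatives run. The lowest, with values below 3 left out, has an interval that reaches past 0 (-0.045 to 0.26). SET had -0.31 (-0.64 to 0.025) and NAP1L1 -0.32 (-0.81 to 0.17), and both intervals reach past 0. The direction for NAP1L1 turned, to 1.23 with values below 3 left out (6 and 27 counts), while it was -1.27 (-2.02 to -0.58) with 0.5 times the labelled cells (54 and 26 counts). NPM1 had 1.06 (0.31 to 1.90), but its 72 counts over both libraries are under the minimum and it was not tested. The alternatives run for NPM1 gave 0.58 to 4.36, all above 0. Intervals reached past 0 with 0.5 times the labelled cells (0.58, -0.39 to 1.66) and with the highest transcript per cell (0.82, -0.40 to 2.28). The same held for protein-coding transcripts only (0.75, -0.029 to 1.62). The median ratio of the 5 tested members was 0.39, against -0.19 for all genes tested. Summed, the 6 genes held 114.3 per 10000 after 30 cycles (109.2 to 119.7) and 152.1 after 35 cycles (146.7 to 157.6), a log2 ratio of 0.41 (0.33 to 0.50).

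The median of all tested genes lay at -0.19 in this pair, and relative to it the sum of the members was 0.60 (0.52 to 0.69). With counts of both species as the scale the sum was 0.22 (0.13 to 0.30).

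Drop-seq gave smaller ratios between the same cycle numbers. None of the 4 members with at least 100 counts was called higher or lower. In the background of 304 genes 0.987% were called higher, 0.987% lower and 1.97% in either direction. NPM1 had a log2 ratio of -0.034 (-0.28 to 0.22), NCL 0.15 (-0.32 to 0.63) and NAP1L1 -0.083 (-0.44 to 0.28). PTMA, the prothymosin gene, had 0.31 (0.13 to 0.50), the one tested member whose interval does not reach 0, though with the highest transcript per cell it does (0.24, -0.098 to 0.58). The median of the 4 was 0.057, against -0.051 for all genes tested.

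SET and ANP32B were too low for this rule in Drop-seq. With 5 and 21 counts SET gave a log2 ratio of 1.49 (0.15 to 3.36), and ANP32B gave with 29 and 34 a ratio of -0.25 (-1.01 to 0.52). Summed, the 6 genes held 120.8 per 10000 after 30 cycles (112.6 to 129.4) and 134.2 after 35 cycles (126.9 to 141.9), a log2 ratio of 0.15 (0.024 to 0.28). Without PTMA, a sum added after the values were seen, it was 0.0031 (-0.18 to 0.18). The 25-cycle library held 131.5 (124.9 to 138.2), inside the range of both, but it stores values down to 1.

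**Figure D2:**
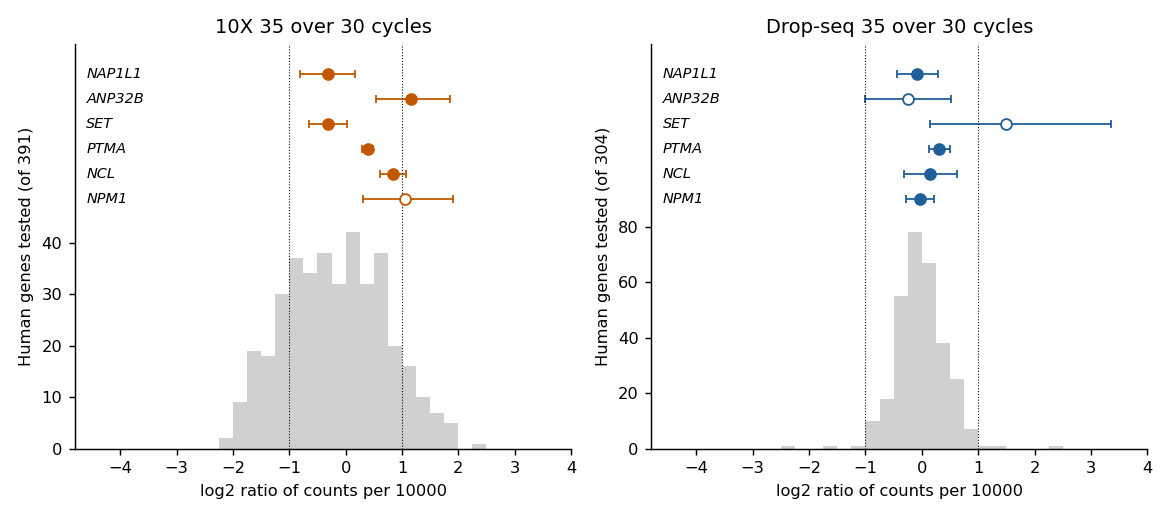
Log2 ratio of the level at 35 over that after 30 cycles in 10X (left) and Drop-seq (right), with exact 95% intervals; open points had under 100 counts, and dotted lines mark 2-fold. Grey bars are the number of human genes tested in each bin of ratio, which spread wider in 10X (391 genes) than in Drop-seq (304 genes).

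Single transcripts were tested by the same rule. In 10X 10 transcripts of the members had 100 counts or more, and 2 were called higher and 0 lower, where 7.61% of 381 human transcripts were called higher, 20.5% lower and 28.1% in either direction. They were the ANP32B transcript ENST00000339399 and ENST00000461347, a form of NCL annotated as a retained intron. The latter had 45 counts after 30 cycles and 151 after 35 cycles, a log2 ratio of 1.44 (0.96 to 1.96), while the coding form ENST00000322723 had 178 and 338 and a ratio of 0.62 (0.36 to 0.90). The share of ENST00000461347 in the NCL counts was 20.2% after 30 cycles (exact Clopper-Pearson interval 15.1 to 26.1%) and 30.6% after 35 cycles (26.6 to 34.9%). It had counts in 21 and 62 of the 10X cells, of which 21 and 61 also held the coding form. In 18 and 53 of them the 2 forms had the same count. This call and these shares can thus repeat counts of the coding form, and how far they do was not tested. With 14 and 17 counts in Drop-seq it was under the minimum there, with a ratio of -0.21 (-1.31 to 0.93). NCL introns hold small nucleolar RNAs, whose part in these counts was not tested. In Drop-seq 7 transcripts of the members were tested and 0 were called, with 0% of 243 human transcripts called in either direction.

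The platforms were set side by side with values below 3 left out of both, since the libraries store different smallest values. These ratios compare cells that also differ in their marker genes. At 30 cycles NPM1 kept 0 counts in 10X against 227 in Drop-seq, at least 61.4-fold higher when 3 counts are set as the limit for a library at 0. That bound holds only for values of 3 or more. As stored, 10X held 20 NPM1 counts, and the log2 ratio was as low as 4.74 among the alternatives run. NAP1L1 had 6 against 117 counts, a log2 ratio of 3.87 (2.82 to 5.46). NCL had 0.37 (-0.22 to 0.98), a direction that turns with values as stored (-0.52), with counts of both species (-0.83) and with the median of ratios (-2.22). PTMA had -0.82 (-1.02 to -0.63), and it stayed below 0 under each of these.

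NPM1 and NAP1L1 were called higher in Drop-seq, but they reached the minimum of 100 counts through Drop-seq alone, while SET, lower there, did not reach it, so nothing is read from how many members were called. Of the 149 genes tested 59.7% were called higher, 30.9% lower and 90.6% in either direction. SET had 31 against 5 counts, a log2 ratio of -2.82 (-4.65 to -1.56), and ANP32B 6 against 29, a ratio of 1.88 (0.68 to 3.53) that turns to -0.71 with the median of ratios, both below the minimum. Summed, the 6 genes held 112.3 per 10000 in 10X (103.6 to 121.6) and 120.8 in Drop-seq, a log2 ratio of 0.10 (-0.05 to 0.26). The median of all genes tested lay at 2.59 in this comparison, and relative to it the sum was -2.49 (-2.64 to -2.33). Without PTMA, a sum added after the values were seen, it was 2.10 (1.77 to 2.47).

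At 35 cycles, a comparison added after the data were seen, NPM1 had 18 counts in 10X against 309 in Drop-seq, a log2 ratio of 4.14 (3.49 to 4.95). NAP1L1 had 27 against 154, a ratio of 2.56 (1.99 to 3.23). NCL lay the other way from its value after 30 cycles, with -0.98 (-1.35 to -0.63), and PTMA had -0.62 (-0.76 to -0.47). SET had -1.32 (-2.14 to -0.60) and ANP32B 0.35 (-0.41 to 1.13), below the minimum of counts. NPM1 and NAP1L1 were again called higher and reached the minimum through Drop-seq alone, and 66.8% of the 205 genes tested were called higher, 24.4% lower and 91.2% in either direction.

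The shares of transcripts within a gene do not depend on the scale of the library, though the smallest stored value can remove a weak form from a cell, and its part in the shares was not tested. The forms of PTMA, SET and NPM1 are shown here because their shares are the ones that separate platforms or fail to. The coding sequences below are read from GENCODE transcripts, with bases found only in the form named in capitals. ENST00000341369 of PTMA has 3 coding bases more than ENST00000409115, and ENST00000409683 lacks 9 bases of it at chr2:231712443-231712451 (hg38).
PTMA ENST00000409115, around base 118 of its coding sequence: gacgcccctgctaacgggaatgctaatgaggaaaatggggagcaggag
PTMA ENST00000341369, the same stretch: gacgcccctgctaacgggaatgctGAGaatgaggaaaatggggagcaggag
PTMA ENST00000409115, around base 212: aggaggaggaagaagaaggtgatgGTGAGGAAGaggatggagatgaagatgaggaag
PTMA ENST00000409683, the same stretch: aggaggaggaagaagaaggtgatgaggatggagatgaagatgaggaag
The insert of 3 bases is a single acidic codon.

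ENST00000409115 held 28.8, 31.2 and 30.1% of the PTMA counts in Drop-seq after 25, 30 and 35 cycles and 33.5 and 31.4% in 10X after 30 and 35 cycles. ENST00000341369 held 27.1 to 32.8% in the 5 libraries. These shares differ little between platforms. The form that lacks 9 bases, ENST00000409683, held 19.2% (16.4 to 22.3%), 21.1% (17.1 to 25.7%) and 22.1% (18.9 to 25.5%) in Drop-seq and 4.43% (3.40 to 5.67%) and 5.22% (4.33 to 6.24%) in 10X. The retained-intron form ENST00000481928 went the other way, with 13.1% (10.7 to 15.8%), 9.49% (6.70 to 12.9%) and 9.40% (7.25 to 11.9%) in Drop-seq and 22.8% (20.6 to 25.2%) and 21.9% (20.2 to 23.7%) in 10X. For both forms no Drop-seq interval overlaps a 10X interval, and within a platform the intervals of the cycle numbers overlap. ENST00000409683 is annotated with 933 bases and ENST00000481928 with 1635, against 1215 and 1212 for the main forms. Besides the 9 bases, ENST00000409683 has an annotated end further upstream, at chr2:231713289, against 231713551 and 231713536 for the main forms. Which of these differences the reads were assigned by was not tested, so its shares are not read as use of the 9 bases.

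The main SET forms differ in their first coding exon, which is at chr9:128689586-128689653 (hg38) for ENST00000322030.
SET ENST00000322030, start of the coding sequence: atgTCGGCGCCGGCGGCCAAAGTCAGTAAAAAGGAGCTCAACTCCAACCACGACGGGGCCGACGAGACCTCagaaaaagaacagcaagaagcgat
SET ENST00000372692, start of the coding sequence: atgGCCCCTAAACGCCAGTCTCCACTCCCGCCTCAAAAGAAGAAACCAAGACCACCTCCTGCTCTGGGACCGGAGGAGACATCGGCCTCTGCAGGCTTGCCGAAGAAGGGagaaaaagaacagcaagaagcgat
In 10X ENST00000322030 held 51.6% after 30 cycles (43.4 to 59.8%) and 52.6% after 35 cycles (44.4 to 60.8%), and ENST00000372692 held 47.1% (38.9 to 55.3%) and 44.7% (36.7 to 53.0%). Over all libraries 58 of the 86 cells with either form had the same count of both (67.4%). In Drop-seq after 25 cycles ENST00000322030 held 32 of 43 counts (74.4%, 58.8 to 86.5%) and ENST00000372692 5 (11.6%, 3.89 to 25.1%). At 30 cycles all 5 SET counts were on ENST00000322030, and after 35 cycles 12 of 21 were (57.1%, 34.0 to 78.2%). Of the counts in the 25-cycle library 26 came from 1 cell, so these shares describe few cells.

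NPM1 has a form without an exon of 87 coding bases, at chr5:171400839-171400925 (hg38), just past the acidic stretch shown above.
NPM1 ENST00000296930, around base 583 of its coding sequence: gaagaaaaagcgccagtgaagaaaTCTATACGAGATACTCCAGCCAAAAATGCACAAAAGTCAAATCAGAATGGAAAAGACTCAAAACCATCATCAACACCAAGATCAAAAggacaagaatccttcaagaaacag
NPM1 ENST00000351986, the same stretch: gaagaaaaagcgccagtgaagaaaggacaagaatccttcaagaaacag
In Drop-seq after 25, 30 and 35 cycles ENST00000296930 held 30.7, 31.3 and 31.7% of the NPM1 counts, the form without the exon 28.4, 29.5 and 27.8%, and ENST00000517671, whose coding sequence is that of ENST00000296930, 25.5, 24.7 and 25.2%. The 3 libraries thus gave nearly the same split. ENST00000393820, a coding form that ends upstream of the others, held 9.26% (6.72 to 12.3%), 8.37% (5.11 to 12.8%) and 10.7% (7.47 to 14.7%). In 10X it had no counts, but with 20 and 52 NPM1 counts the intervals there run to 16.8% and 6.85%, and the former spans the Drop-seq shares.

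NCL and NAP1L1 also split over several transcripts. The coding form of NCL held 71.9, 65.6 and 63.6% of its counts in Drop-seq after 25, 30 and 35 cycles and 79.8 and 68.6% in 10X after 30 and 35 cycles. ENST00000494618, a short retained-intron form of NCL with 910 annotated bases, held 3.13% (0.381 to 10.8%), 12.5% (5.55 to 23.2%) and 19.2% (12.0 to 28.3%) in Drop-seq. In 10X it held 0 of 223 counts (upper bound 1.64%) and 0.406% (0.0492 to 1.46%). Its 2, 8 and 19 counts in Drop-seq came from 2 cells in each library, so these shares describe few cells.

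NAP1L1 has 24 transcripts in the matrices, and ENST00000618691 and ENST00000393263, with the same coding sequence, held 25.5% each in Drop-seq after 25 cycles. ENST00000618691, annotated with 13159 bases, held 22.2% after 30 cycles and 25.3% after 35 cycles there. In 10X it held 51.4% after 30 cycles (39.4 to 63.1%, 38 of 74 counts) and 28.8% after 35 cycles (18.8 to 40.6%, 21 of 73 counts). The intervals of the 10X pair overlap slightly.

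**Figure D3:**
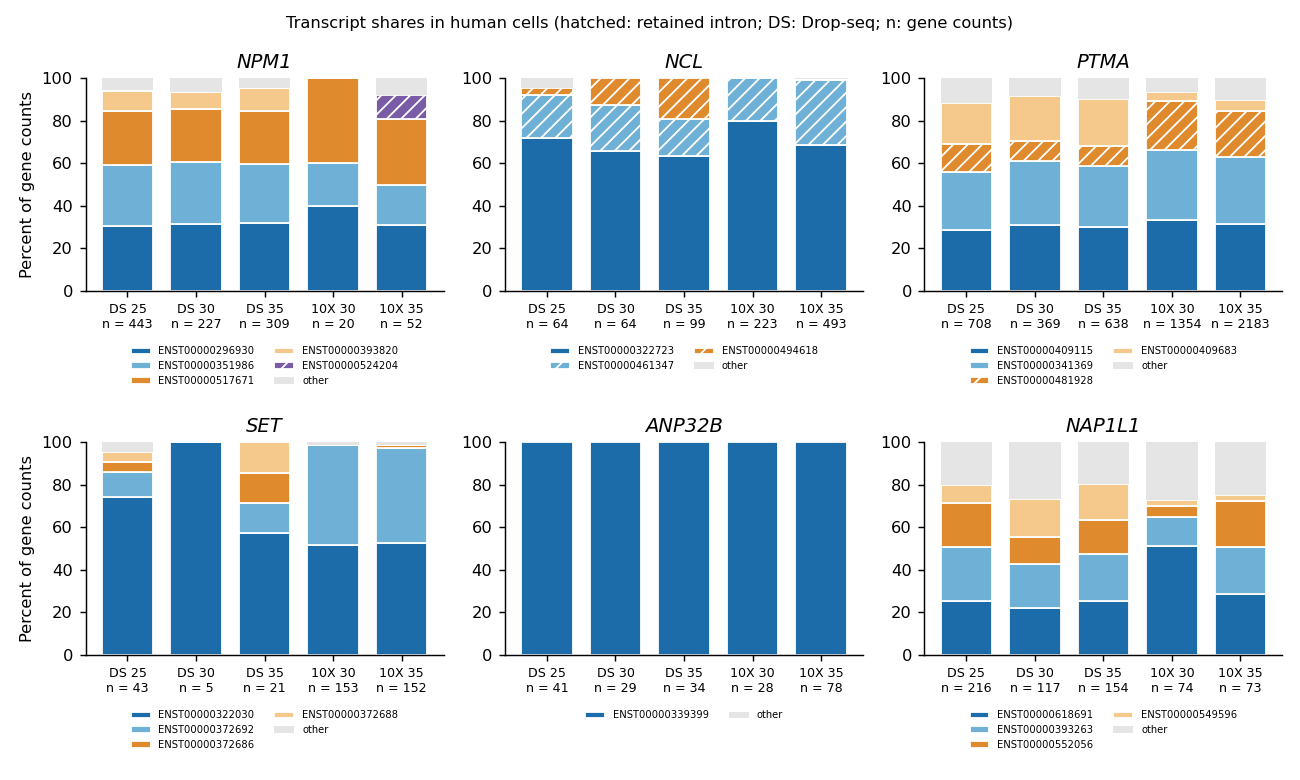
Share of each gene's counts held by its named transcripts in the 5 libraries, in percent, with retained-intron forms hatched, remaining transcripts in light grey and the gene's counts given as n. The PTMA bars show ENST00000409683 at 19.2 to 22.1% in Drop-seq and 4.43 to 5.22% in 10X, with the hatched ENST00000481928 the other way.

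The spread over cells asks how many cells carry the counts. PTMA had a stored count in 23.9% of human cells in Drop-seq after 25 cycles (60 of 251, 18.8 to 29.7%), 13.9% after 30 cycles (23 of 166, 8.99 to 20.1%) and 18.8% after 35 cycles (31 of 165, 13.1 to 25.6%). In 10X it was 19.9% after 30 cycles (200 of 1006, 17.5 to 22.5%) and 30.8% after 35 cycles (281 of 911, 27.9 to 34.0%). Mouse cells, which should lack human transcripts, had PTMA in 3.90, 0.687 and 0.647% of Drop-seq cells and in 0.248 and 0.114% of 10X cells. Their median depths were 282.5, 278 and 417 counts in Drop-seq and 117 and 171 in 10X, close to those of the human cells or above. The human shares all lie well above this background.

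NPM1 was found in few 10X cells. It had a count in 11.6% of human cells in Drop-seq after 25 cycles (7.88 to 16.2%), 6.63% after 30 cycles (3.35 to 11.5%) and 9.70% after 35 cycles (5.64 to 15.3%), and in 4 of 1006 (0.398%, 0.108 to 1.01%) and 8 of 911 (0.878%, 0.380 to 1.72%) in 10X. Mouse cells had it in 2.20, 0 and 0.324% in Drop-seq. In 10X it was in 0 of 806 and 0 of 881 mouse cells, which allow shares of up to 0.372 and 0.341%. The 10X share after 30 cycles is thus near the limit that its mouse cells can show.

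NCL was found in 3.59, 4.82 and 5.45% of human cells in Drop-seq after 25, 30 and 35 cycles, and in 8.15% (6.54 to 10.0%) and 15.8% (13.5 to 18.3%) in 10X after 30 and 35 cycles. SET was found in 2.79, 0.602 and 1.21% in Drop-seq and in 3.88 and 4.06% in 10X. Mouse cells had NCL in 0.169% and SET in 0.339% of the 25-cycle library and in none of the other 4. ANP32B was found in 5.18, 3.01 and 3.03% in Drop-seq and in 1.29% (0.690 to 2.20%) and 3.73% (2.60 to 5.18%) in 10X, and NAP1L1 in 9.16, 3.61 and 6.67% and in 2.39 and 1.98%. Mouse cells had ANP32B in 0.339% and NAP1L1 in 1.02% after 25 cycles and neither in any other library. The cycle numbers of 10X separate for PTMA, NCL and ANP32B and overlap for the other 3 genes.

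Since 10X cells were deeper after 35 cycles, each cell was also thinned to 100 counts. The 10X shares were then 20.5% after 30 cycles (17.5 to 23.8%, 348 shallower cells left out) and 28.4% after 35 cycles (25.5 to 31.5%, none left out) for PTMA, and 7.14% (5.30 to 9.39%) and 12.2% (10.1 to 14.5%) for NCL. The intervals of these 2 genes still separate. Thinning draws from the stored counts, so it cannot bring back values below 2 that neither 10X library stores. At 200 counts, with 798 and 585 shallower cells left out, they overlapped for PTMA, with 32.7% (26.4 to 39.5%) and 43.6% (38.1 to 49.1%), and stayed apart for NCL, with 7.69% (4.46 to 12.2%) and 19.6% (15.5 to 24.4%). For ANP32B the thinned shares were 1.22% (0.526 to 2.38%) and 1.98% (1.18 to 3.10%), which overlap. In Drop-seq no human cell was left out, and PTMA had 18.7, 12.0 and 17.0% and NPM1 10.4, 4.82 and 8.48%.

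**Figure D4:**
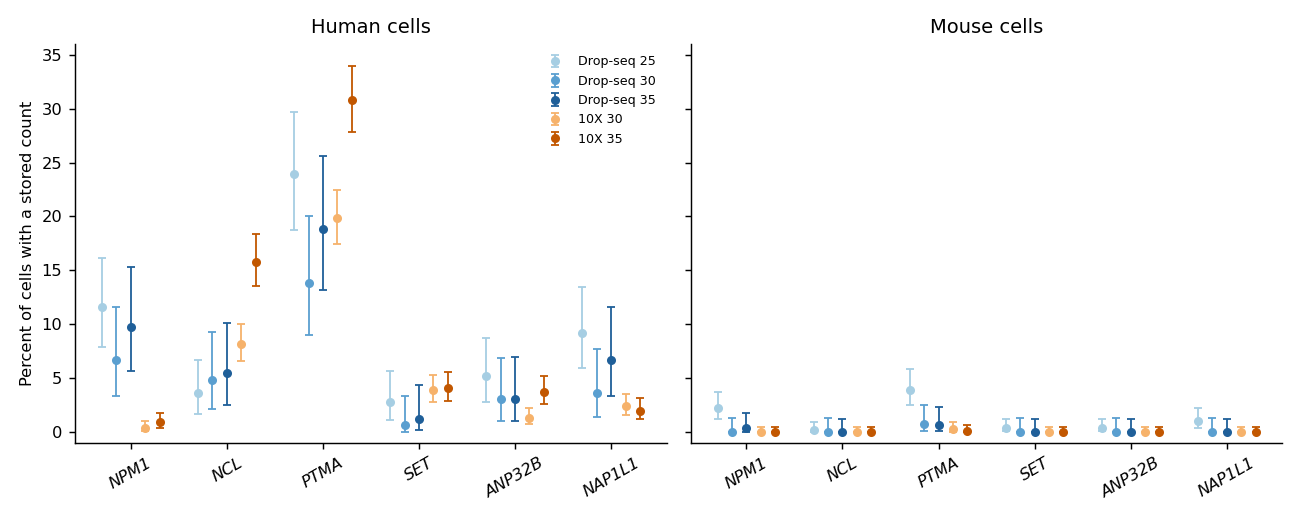
Percent of human cells (left) and mouse cells (right) with a stored count of each gene in the 5 libraries, with exact Clopper-Pearson 95% intervals. Mouse cells are sorted by their low share of human counts, so they are not an independent background. The human PTMA shares run from 13.9 to 30.8%, and every mouse share is at or below 3.90%, the highest being PTMA in the 25-cycle library.

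Counts per positive cell were compared next, where Drop-seq after 30 and 35 cycles stores no value below 3 and 10X none below 2. The 11 Drop-seq cells with NPM1 after 30 cycles had a median of 20 counts and at most 41, and the 16 cells after 35 cycles a median of 17 and at most 49. PTMA had medians of 12 and 16 in these libraries and at most 46 and 70, against a median of 6 and at most 24 and 34 in 10X. NAP1L1 had medians of 20.5 and 9 against 2 and 4, and NCL 5 and 8 against 2 and 3. In the 25-cycle Drop-seq library, which stores values from 1, the medians were 9 for NPM1, 6 for PTMA, 4 for NAP1L1 and 6 for NCL. For PTMA and NAP1L1 these are no higher than in 10X after 35 cycles, so the platforms do not separate at every cycle number.

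The totals often rested on few cells. The cells with the most counts of a gene that together held 50% of them numbered 4 and 5 for NPM1, 8 and 8 for PTMA and 2 and 3 for NAP1L1 after 30 and 35 cycles. In 10X they numbered 2 and 3 for NPM1 and 7 and 7 for NAP1L1, but 68 and 97 for PTMA and 27 and 46 for NCL. A single cell held 26 of the 43 SET counts of the 25-cycle library, 60.5%, and 29 of its 64 NCL counts, 45.3%. The 10% of human cells with the greatest depth held 44.9% of the NPM1 counts and 59.8% of the NAP1L1 counts in Drop-seq after 30 cycles, beside 35.7% of all human counts. For NCL they held 10.9% there.

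**Figure D5:**
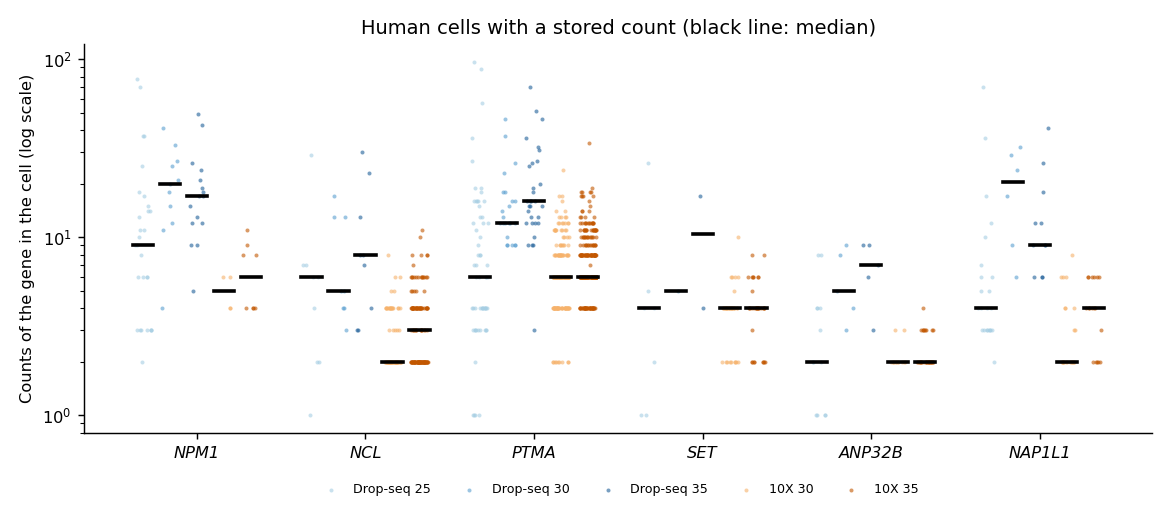
Counts of each gene in every human cell that has it, on a log axis, by library, with the median as a black line. NPM1 medians are 20 and 17 in Drop-seq after 30 and 35 cycles and 5 and 6 in 10X, and most NCL points of 10X sit at 2 to 4 counts.

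The 6 genes were rarely stored together in a cell. None of them was found in 56.2, 71.7 and 63.0% of the human cells in Drop-seq after 25, 30 and 35 cycles and in 69.0 and 54.6% in 10X after 30 and 35 cycles. A single one was found in 34.7, 24.1 and 30.3% and in 26.8 and 34.6%. No cell had more than 4, and the 1 Drop-seq cell with 4 was the deepest of its library, with 5859 counts. Cells with more members were deeper, as in 10X after 35 cycles, where the median depth was 156 counts with none, 187 with 1 and 227 with 2.

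Barcodes shared by a pair show whether the same cell gave the gene again. In 10X the 722 shared human cells had 306 combinations of a cell and a member after 30 cycles, and 126 of them (41.2%, 35.6 to 46.9%) were found again after 35 cycles, beside 29.5% (29.0 to 30.0%) for all human genes. The members and all human genes were not matched for level. PTMA, with most of the members' 10X counts, was found again in 90 of 175 cells (51.4%, 43.8 to 59.0%). NCL was found again in 25 of 65 (38.5%, 26.7 to 51.4%) and SET in 4 of 29 (13.8%, 3.89 to 31.7%). NPM1 was found in 3 of these cells after 30 cycles and 7 after 35 cycles, and in none at both.

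In Drop-seq the 145 shared cells had 52 combinations after 30 cycles, and 48 (92.3%, 81.5 to 97.9%) were found again after 35 cycles, beside 87.3% for all human genes (86.3 to 88.2%). NPM1 was found again in 11 of 11 cells, NCL in 8 of 8 and NAP1L1 in 6 of 6, and PTMA in 18 of 21. The count of the gene was higher after 35 cycles in 32 of the 48, equal in 8 and lower in 8. Over all human genes it was higher in 2541 of 4294 combinations, equal in 621 and lower in 1132, and the library after 35 cycles holds more human counts. From 25 to 30 cycles 43 of 86 combinations were found again (50.0%, 39.0 to 61.0%), where the 25-cycle library stores values down to 1, and 43 of the 45 after 30 cycles had been there before (95.6%).

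Barcodes outside the cells carried the genes as well. Summed over them, the 6 genes held 114.5, 117.3 and 111.0 per 10000 human counts in Drop-seq after 25, 30 and 35 cycles and 98.5 and 120.7 in 10X after 30 and 35 cycles, which is 0.794 to 0.971 times the level in human cells. NPM1 outside the cells was at 25.6, 23.2 and 27.4 per 10000 in the Drop-seq libraries against 1.43 and 1.72 in those of 10X, so the difference between platforms was also seen there. SET was higher outside than inside in all 3 Drop-seq libraries, with 6.34, 6.79 and 7.61 per 10000, which is 1.70, 9.11 and 3.39 times its level in the cells. These values lie near its 10X levels of 7.76 and 7.13 outside the cells. The low SET level of the Drop-seq cells thus was not found in their other barcodes.

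A list of 45 further genes for histone chaperones and nucleolar proteins was counted by the same rule. In 10X 38 of them had counts and 5 had enough to be tested, with 1 called higher, 1 lower and a median log2 ratio of 0.013, against -0.19 for all genes tested. NASP, a chaperone of linker and core histones, had 26 counts after 30 cycles and 91 after 35 cycles, a log2 ratio of 1.49 (0.87 to 2.20). ANP32E, a relative of ANP32B that removes the histone variant H2A.Z, had 479 and 242, a ratio of -1.28 (-1.51 to -1.06). It thus lay in the opposite direction from ANP32B, whose ratio was 1.16. DDX21, DKC1 and NOLC1 were tested and not called, with -0.34, 0.64 and 0.013.

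In Drop-seq 27 of the 45 had counts and 2 were tested, ANP32E with 0.22 (-0.34 to 0.81) and DEK, a chromatin protein and histone chaperone, with 0.67 (0.23 to 1.14), and neither was called. Between platforms after 30 cycles ANP32E was the 1 gene tested and was called lower in Drop-seq, with 110 against 43 counts and a log2 ratio of -1.65 (-2.20 to -1.14). At 35 cycles it had 0.20 (-0.31 to 0.71). DEK, tested there as well, had 0 counts in 10X with values below 3 left out, against 136 in Drop-seq.

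Relatives of the members can share reads with them. ANP32E was the highest relative, with 139, 43 and 70 counts in Drop-seq after 25, 30 and 35 cycles and 479 and 242 in 10X after 30 and 35 cycles. ANP32A, a further member of that family, had 21, 26, 60, 20 and 17 in the same order, and NAP1L4, a relative of NAP1L1, had 25, 10, 20, 12 and 27. Processed pseudogenes of the members were at 9 counts or fewer in every library, the highest being PTMAP5 with 9 after 25 cycles. In 10X after 30 cycles NPM1P26 and NPM1P40 had 2 counts each, beside 20 of NPM1.

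The genes most like each member over the 5 libraries were sought among those with at least 50 counts in every library, as the smallest root mean square difference between log2 levels centred over the libraries. NAP1L1 lay closest to RPS14 (0.15) and RPLP1 (0.19), and RPS14 had 106.6, 99.9 and 82.1 per 10000 in Drop-seq after 25, 30 and 35 cycles and 20.2 and 17.1 in 10X after 30 and 35 cycles. NPM1 lay closest to RPL13 (0.38) and RPS3A (0.39). Both pairs are ribosomal protein genes. They were drawn from 67 candidates for NAP1L1 and 68 for NPM1, among which the share of ribosomal protein genes was not counted. NCL lay closest to RPL6P27 and EEF1A1 (0.24 each), PTMA to MT-CYB (0.20), SET to ACTB (0.61) and ANP32B to MTCO1P12 (0.33). NPM1, SET and ANP32B themselves have under 50 counts in at least 1 library. With 5 libraries that share stored barcodes within a platform, these are descriptions of level patterns.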

How the data were processed

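The 5 matrices deposited by the authors hold unnormalized UMI counts, one whole number for each stored pair of a barcode and a transcript. Per the methods of the study, minimap2 aligned the reads to transcripts of both species (hg38 and mm10), 10X UMIs were counted with UMI-tools, and Drop-seq UMIs were counted with UMI-tools or with a set cover script. Which of these made the Drop-seq counts, and the filters behind the smallest stored values, are not given in the sources used here. Cycle numbers follow the labels. The labels and the single-cell methods give the human line as JJN3, but Jurkat cells appear in the culture methods and a figure legend.

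Of 46484 human transcript identifiers 42740 (91.9%) matched GENCODE release 44 on hg38. Counts were summed per gene over human cells and divided by their human counts. Log2 ratios used 0.5 added counts, and a feature was called by size alone, without a test, where it had at least 100 counts over both libraries and differed 2-fold or more. Total stored counts were 528502 to 2311090 in Drop-seq and 494147 and 740994 in 10X, and no doublet caller was run. Named were the 6 genes, their 3 transcripts with the most counts and any with 10% of a gene in a library, relatives with 20 counts, and the listed genes that changed. PTMAP5, NPM1P26, NPM1P40, DDX21, DKC1 and NOLC1 were named after their values were seen. The members, lists and rules were chosen with earlier results of these data known. The method was tested on simulated data. Alternatives changed the cells, purity, scaling, smallest value, count minimum and gene total. Python 3.11.15, numpy 2.4.6, pandas 2.3.3, scipy 1.17.1 and matplotlib 3.10.9 were used.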

Additional observations from a re-analysis of the deposited data

Results flagged for a closer look

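For 3 of the genes the ratio of 35 over 30 cycles pointed in opposite directions on the platforms, with 1 library behind each value, and the difference was not tested. NPM1 had a log2 ratio of 1.06 in 10X, from 20 and 52 counts in 4 and 8 cells. In Drop-seq it had -0.034, with an interval that spans 0. SET had -0.31 in 10X and 1.49 in Drop-seq, the latter from 5 and 21 counts in 1 and 2 cells. ANP32B had 1.16 in 10X and -0.25 in Drop-seq, where its 63 counts give an interval of -1.01 to 0.52.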

How the results depend on the processing

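Replicates could not be paired because the labels give 1 library per group. Only cells were paired, by the stored barcodes that libraries of a platform share. The sum of the 6 genes kept its sign within a platform under every alternative run, but in Drop-seq not always clear of 0. Its interval there reached past 0 with 0.5 times the labelled cells (0.086, -0.059 to 0.23) and with barcodes that are cells in both libraries (0.11, -0.019 to 0.24). In 10X its log2 ratio of 35 over 30 cycles moved from 0.41 to 0.51 with all barcodes of at least 100 counts, 0.29 with barcodes that are cells in both libraries, 0.22 with counts of both species, 0.60 with the median of ratios, 0.30 with values below 3 left out and 0.33 with the highest transcript per cell. In Drop-seq it moved only without PTMA, from 0.15 to 0.0031, with an interval that spans 0. Between platforms at 30 cycles it moved from 0.10 to 0.30 with barcodes of at least 100 counts, 0.26 with 0.5 times the labelled cells, 0.32 with protein-coding transcripts, 2.10 without PTMA, -1.09 with counts of both species and -2.49 with the median of ratios, and ANP32B turned from 1.88 to -0.71 with the last. The cause of these shifts was not tested. Genes called in 10X numbered 118, and 74 with 0.5 times the labelled cells, 46 with values below 3 left out, 281 and 43 at minimums of 50 and 200 counts, 62 with the highest transcript and 77 with protein-coding transcripts; transcripts called numbered 107, and 44, 228 and 48 with values below 3 left out and at these minimums. In Drop-seq 6 genes were called, and 18 with barcodes of at least 100 counts, 53 and 0 at the minimums and 0 with the highest transcript, while 0 transcripts were called, and 1 and 3 at purities of 80 and 95% and 11 at the minimum of 50. Between platforms 135 genes were called, and 239 with values as stored, 299 and 66 at the minimums and 68 with the highest transcript. Fewer or more features tested accompany the minimums by construction. Shares of cells thinned to 100 counts stayed within the interval of the unthinned share in 26 of 30 cases, and in 23 of 30 at 200 counts. Members with under 100 counts over a pair (NPM1 in 10X, SET and ANP32B in Drop-seq) had too few counts for the 2-fold rule.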
